A study of Mus musculus with 10 samples.

Results

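The barcodes described here were the GFP barcodes that were abundant before retransplantation, chosen by a level of at least 100 CPM (reads of a barcode on a scale on which each sample sums to 1000000) in at least 1 of the 2 baseline samples. The rule found 33 barcodes among 485 listed GFP barcodes, of which 325 had reads in any sample, and among 19704 listed barcodes of all libraries. Of the 33, 21 passed in the baseline of donor mouse 1, 19 in that of donor mouse 2, and 7 in both. Since baseline values chose them, their baseline levels and every difference from baseline are given as descriptions without a test. The strain and tissue of the recipients played no part in the choice.

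A lentiviral barcode is copied with the genome at each division, so that its share of barcode reads in a DNA sample follows the share of cells descended from the cell that took it up. SPLINTR is a set of such libraries in which the barcode travels with a fluorescent protein, here GFP, BFP or mCHERRY. Retransplantation of a barcoded leukaemia shows which of the existing clones regrow in a new host, and a host without lymphocytes removes a source of pressure on them.

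The study used mouse leukaemia cells driven by MLL-AF9, a fusion of the Kmt2a and Mllt3 genes found in acute leukaemia. The cells descended from c-Kit-positive haematopoietic progenitors grown in IL-3, IL-6 and SCF and transduced with SPLINTR. All groups carried the fusion and the barcodes. The baseline group held cells of each donor mouse before transfer, with no tissue or strain given in the labels. The 4 disease groups were bone marrow and spleen of NSG and of PTPRCA recipients. NSG mice lack T, B and natural killer cells. PTPRCA recipients are Ptprca mice, which have a functional immune system and differ in an allele of CD45. Each group held 2 samples, 1 per donor mouse, and the labels gave neither ages nor the number of recipients behind a sample. A strain difference within a donor therefore cannot be told apart from a difference between individual recipients. Samples rested on 5171235 to 10394809 reads in 2 to 4 sequenced libraries each, and 3 reads, up to which a count of 0 leaves a level possible, equalled 0.289 to 0.580 CPM. Reads of a PCR product without molecular identifiers are not independent molecules, and these limits hold counting error alone.

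The libraries averaged into a sample differed from each other in 2 samples of donor 1. The protocol describes a lysate split into technical replicates. The sources do not say whether the libraries of a sample came from 1 lysate or 1 recipient. In the 8 samples with 2 libraries, the reads of each library were recovered for barcodes of 10 CPM or more wherever a single solution existed. In PTPRCA spleen of donor 1, 12 of 14 barcodes differed over 2-fold between the libraries (median ratio 4.43), and in NSG marrow of donor 1 7 of 10 did (median ratio 2.50). The counts include barcodes at 0 in 1 library, 1 in that spleen and 2 in that marrow. The medians leave these out and so understate the difference. In the other 6 samples 1 barcode in all did, and the median ratios were 1.05 to 1.19. GFP_Barcode_69276 stood at 1602 and 13321 CPM in the 2 PTPRCA spleen libraries of donor 1, GFP_Barcode_3138 at 4657 and 456 CPM, and GFP_Barcode_22403 at 805 and 5210 CPM. GFP_Barcode_18532 was at 0 in the first and 610 CPM in the second. The difference ran in either direction, and the cause was not tested.

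At baseline the 33 barcodes held 53.1% of donor 1 reads and 41.6% of donor 2 reads, and 99.9% and 99.97% of all GFP reads. Their abundance was steeply graded. In donor 1 the 21 barcodes ranged from 243 CPM to 297739 CPM with a median of 1884 CPM, and in donor 2 the 19 ranged from 209 CPM to 367349 CPM with a median of 582 CPM. In donor 1, 7 of the 10 most abundant barcodes of any colour belonged to the set, and in donor 2 3 of 10 did. A gap separated the set from the remaining GFP barcodes. The 3 barcodes just inside the threshold had a highest baseline value of 209 CPM (GFP_Barcode_47225), 243 CPM (GFP_Barcode_24894) and 287 CPM (GFP_Barcode_16890). The 3 just outside had 73.6 CPM (GFP_Barcode_4355), 70.9 CPM (GFP_Barcode_9130) and 54.9 CPM (GFP_Barcode_23638).

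The 7 barcodes abundant in both baselines stood in a similar order in the 2 donors, although each was at a different level. Spearman's rho between their 2 baseline values was 0.929 over 7 barcodes, given as a description. GFP_Barcode_52804 held 29.8% and 36.7% of reads in donors 1 and 2, GFP_Barcode_52357 12.6% and 3.10%, and GFP_Barcode_69276 4.24% and 0.345%. GFP_Barcode_98919 stood at 30747 and 1383 CPM, GFP_Barcode_113643 at 7288 and 2377 CPM, GFP_Barcode_7083 at 4085 and 366 CPM, and GFP_Barcode_38818 at 1233 and 464 CPM. Of these, GFP_Barcode_52804 alone was higher in donor 2. The labels and values do not tell whether a barcode seen in both donors marks 1 clone that both carried or separate cells with the same barcode.

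GFP_Barcode_52804 was the most abundant barcode in all 10 samples and held 21.1% to 42.2% of reads. The donor 1 shares of reads were 29.8% at baseline, 31.4% (marrow) and 30.9% (spleen) in NSG, and 32.1% (marrow) and 21.1% (spleen) in PTPRCA. The donor 2 shares were 36.7% at baseline, 36.6% (marrow) and 42.2% (spleen) in NSG, and 34.8% (marrow) and 39.1% (spleen) in PTPRCA. Its mean disease level was 0.969 of baseline in donor 1 and 1.04 in donor 2. NSG exceeded PTPRCA by a mean log2 value of 0.18, namely 0.26 in donor 1 and 0.092 in donor 2, and a two-sided exact permutation test that exchanged strains inside each donor gave p = 0.5, its lowest possible value. Spleen and marrow differed by a mean log2 value of -0.064, with spleen higher in 2 of 4 pairs (two-sided exact permutation test flipping the sign of pairs, p = 0.875). Neither test, at this number of samples, could have reached a p below 0.05. The strains overlapped, with NSG at 30.9% to 42.2% and PTPRCA at 21.1% to 39.1%.

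Behind this barcode the rest of the set was mostly far lower at disease than at baseline. In donor 1, GFP_Barcode_52804 made up 56.1% of the reads of the set at baseline and 45.2% to 88.2% at disease. In donor 2 it made up 88.2% at baseline and 95.3% to 99.9% at disease. With it removed, the other 32 barcodes held 33.2% of the remaining donor 1 reads at baseline, 7.23% (marrow) and 5.95% (spleen) in NSG, and 12.5% (marrow) and 32.4% (spleen) in PTPRCA. In donor 2 they held 7.74% at baseline, 0.144% (marrow) and 0.0765% (spleen) in NSG, and 2.62% (marrow) and 2.97% (spleen) in PTPRCA. In each donor both NSG samples lay below both PTPRCA samples. Over donors this share was 3.69% ± 5.01 (SD, n = 2) in NSG marrow and 7.55% ± 6.96 (SD, n = 2) in PTPRCA marrow, and 3.01% ± 4.15 (SD, n = 2) in NSG spleen and 17.7% ± 20.8 (SD, n = 2) in PTPRCA spleen. The groups therefore overlapped when donors were pooled. GFP_Barcode_52357 was a large part of these shares, so their strain order is not separate from its own. Of all reads, it made up 1.76% (NSG) against 6.35% (PTPRCA) for donor 1 marrow, and 3.52% against 15.4% for spleen. For donor 2 it made up 0.0460% against 1.47%, and 0.0246% against 1.66%. GFP_Barcode_98919 made up 2.99% against 0.965% for donor 1 marrow, and 0.511% against 8.23% for spleen. The strain order without these barcodes was not tested.

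Without the largest, the median ratio of mean disease level to baseline was 0.0378 over 20 barcodes in donor 1 and 0.0162 over 18 in donor 2. The ratio was 0.1 or less for 14 of 20 and 14 of 18. In donor 1, 3 barcodes stood above their baseline by this mean, namely GFP_Barcode_3138 at 1.36, GFP_Barcode_24894 at 1.06 and GFP_Barcode_98919 at 1.03 of it. In donor 2 the highest of the 18 was GFP_Barcode_18532 at 0.646. Since the barcodes were chosen as high at baseline, nothing is read from these ratios.

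Some barcodes had no read at disease in the donor whose baseline they marked. In donor 1, GFP_Barcode_16890 and GFP_Barcode_25178, at 287 and 463 CPM at baseline, were listed at 0 in all 4 disease samples. In donor 2, 5 barcodes of 209 to 647 CPM at baseline were (GFP_Barcode_585, GFP_Barcode_3121, GFP_Barcode_40350, GFP_Barcode_47225 and GFP_Barcode_50242). GFP_Barcode_27920 of donor 2 was more abundant at baseline, at 2707 CPM, and at disease had reads in PTPRCA marrow only, at 1.06 CPM. At the other end, 3 barcodes of donor 1 (GFP_Barcode_52804, GFP_Barcode_52357 and GFP_Barcode_98919) and 2 of donor 2 (GFP_Barcode_52804 and GFP_Barcode_52357) reached 10000 CPM, or 1% of reads, in a disease sample.

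The recipient strain was the contrast in which the set stood mostly to one side. NSG levels lay below PTPRCA levels for 17 of 21 barcodes in marrow and 16 of 21 in spleen of donor 1, and for 10 of 19 in each tissue of donor 2. They lay above for 2 and 2 barcodes in donor 1 and for 4 and 3 in donor 2. Of all barcodes tested, 35.9% and 29.0% lay lower in NSG marrow and spleen of donor 1 and 46.6% and 45.6% higher. In donor 2, 36.3% and 29.4% lay lower and 46.4% and 45.4% higher. In donor 1, 15 of 21 were lower in NSG in both tissues and 0 were higher in both, with differences taken on log2(CPM + 10). Among all 1722 barcodes of donor 1 with at least 100 CPM in any of its samples, 22.5% were lower in both tissues and 36.4% were higher. In donor 2, 8 of 19 were lower in NSG in both tissues and 2 were higher, against 20.8% lower and 35.8% higher among 1736 barcodes. The remainder had opposite signs in the 2 tissues (3 barcodes in each donor) or no difference in a tissue. The median log2 difference in marrow and spleen was -1.85 and -2.66 over the 21 barcodes of donor 1 and -0.14 and -0.90 over the 19 of donor 2, and 0 over all barcodes tested in each case.

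Counted at over 4-fold in both tissues, 7 of 21 barcodes of donor 1 were lower in NSG and 0 higher, against 6.62% and 12.8% of all barcodes tested in that donor. In donor 2, 4 of 19 were lower and 0 higher, against 5.36% and 10.1%. With a pseudocount of 1 the donor 1 count in either direction was 12, and with 100 it was 2. All 33 passed the abundance filter through their baseline, so that the filter did not favour a strain among them, while many of the other barcodes passed through a disease sample. Among barcodes that likewise had at least 100 CPM at the same baseline, 41.4% of 531 mCHERRY and 8.28% of 580 BFP barcodes of donor 1 were lower in NSG in both tissues, and 19.0% and 27.8% were higher. In donor 2 these values were 26.4% of 552 mCHERRY and 14.7% of 686 BFP barcodes lower, and 36.6% and 18.4% higher. At over 4-fold, 12.8% of these mCHERRY and 0.69% of these BFP barcodes of donor 1 were lower, and 3.95% and 3.79% higher. For donor 2 the values at over 4-fold were 7.07% and 1.6% lower, and 9.24% and 1.17% higher. GFP barcodes were the more abundant ones, and at 1000 CPM or more at baseline 12 of 14 GFP, 14 of 41 mCHERRY and 0 of 12 BFP barcodes of donor 1 were lower in NSG in both tissues. In donor 2, 5 of 8 GFP, 19 of 55 mCHERRY and 10 of 35 BFP barcodes were. Differences between the libraries were not tested.

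Barcode by barcode, limma with 1 mean per group called 0 of 33 barcodes between the strains, and 0% of the 3443 barcodes tested. In that fit 0 of the 33 and 1 of the 3443 had an unadjusted p below 0.05. Its mean difference was below 0 for 22 of the 33 and above 0 for 5, with a median of -0.75, against 35.3% of all barcodes below 0 and a median of 0. With the donor number as a block, which takes out the level of each barcode in its donor, limma called 4 of 33, all lower in NSG, against 0.145% of all barcodes called lower and 0.29% called in either direction. In the same fit 10 of 33 had an unadjusted p below 0.05, all lower, against 2.61% of all barcodes. In the block fit the marrow and the spleen of a recipient group enter as samples of their own. With their mean in place of both, limma called 0 of 33 and 0 of 3443, with 5 and 18 at an unadjusted p below 0.05. It also called 0 with the block and no abundance filter.

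GFP_Barcode_69276 had the largest strain difference among the 4 barcodes called with the block. NSG recipients of donor 1 cells had 1111 CPM (marrow) and 72.7 CPM (spleen), and PTPRCA recipients 1604 CPM and 7461 CPM, from 42374 CPM at baseline. The donor 2 values were 8.49 and 0 CPM for NSG and 1043 and 428 CPM in PTPRCA, from 3454 CPM. All 4 tissue comparisons of sample values ran the same way. The smallest gap was in donor 1 marrow, where PTPRCA was 1.44 times NSG. The libraries overlapped there, at 641 and 1580 CPM in NSG and 1376 and 1831 CPM in PTPRCA. Spleen of donor 2 was at least 1208-fold lower in NSG (0 reads, set at 3 reads for the sample). The log2 difference was -4.58 ± 0.85 (SE, adjusted p = 1.43e-04 by limma with the block), and the adjusted p ranged from 2.76e-07 to 1 over 10 settings that kept the block, 6 of them below 0.05.

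GFP_Barcode_3138 was abundant in the donor 1 baseline only. NSG recipients of donor 1 cells had 199 CPM (marrow) and 210 CPM (spleen), and PTPRCA recipients 4324 CPM and 2557 CPM, from 1339 CPM. NSG levels lay below the baseline and both PTPRCA means above it, but of the PTPRCA spleen libraries, at 4657 and 456 CPM, 1 lay below it. In donor 2 it was at 1.96 CPM at baseline, at 0 in both NSG samples and at 166 and 96.4 CPM in PTPRCA marrow and spleen. The direction was the same in both donors (log2 -3.87 ± 0.88 SE, adjusted p = 0.0078 by limma with the block, range 2.76e-07 to 1).

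GFP_Barcode_113643 was nearly absent from NSG in both donors. NSG recipients of donor 1 cells had 0 CPM (marrow) and 0.665 CPM (spleen), and PTPRCA recipients 187 CPM and 340 CPM, from 7288 CPM at baseline. The donor 2 values were 0.510 and 1.87 CPM for NSG and 55.8 and 79.7 CPM in PTPRCA, from 2377 CPM. The marrow of donor 1 was at least 323-fold lower in NSG (0 reads, set at 3 reads for the sample). The log2 difference was -3.73 ± 0.91 (SE, adjusted p = 0.019 by limma with the block, range 7.95e-09 to 1).

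GFP_Barcode_52357, the second most abundant barcode of both baselines, was the largest of the 4. Its donor 1 share was 1.76% (marrow) and 3.52% (spleen) in NSG and 6.35% and 15.4% in PTPRCA, from 12.6% at baseline. In donor 2 the NSG shares were 0.0460% and 0.0246% and the PTPRCA shares 1.47% and 1.66%, from 3.10%. Its rank among all barcodes was 2 in both PTPRCA tissues of donor 1 and 7 and 6 in those of donor 2, against 4 and 3 in NSG marrow and spleen of donor 1 and 225 and 329 in those of donor 2. The log2 difference was -3.74 ± 0.96 (SE, adjusted p = 0.040 by limma with the block, range 4.70e-07 to 1). Set against GFP_Barcode_52804 of the same sample, a ratio that no scaling alters, it stood at 5.62% and 11.4% in NSG marrow and spleen of donor 1, with 19.8% and 73.3% in the matching PTPRCA tissues. In donor 2 this ratio stood at 0.126% and 0.0582% for NSG, and at 4.23% and 4.24% for PTPRCA. The strain order of GFP_Barcode_52357 was therefore present without reference to the other libraries.

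Of the 29 barcodes that limma with the block did not call, 18 had a mean strain difference below 0, 5 above 0 and 6 at 0. GFP_Barcode_102213 stood in donor 1 at 56.3 and 77.1 CPM in NSG marrow and spleen, with 2897 and 3159 CPM in the matching PTPRCA tissues, and in donor 2 at 0.714 CPM or less (log2 -2.68 ± 0.91 SE, adjusted p = 0.243 by limma with the block). GFP_Barcode_24894 stood in donor 1 at 2.43 and 0.690 CPM in NSG and at 889 and 142 CPM in PTPRCA, from 243 CPM at baseline. GFP_Barcode_7083 stood at 24.8 and 2.10 CPM in NSG and 143 and 370 CPM in PTPRCA of donor 1. The donor 2 values were 0.157 and 0.112 CPM for NSG and 88.1 and 57.9 CPM in PTPRCA (log2 -3.28 ± 0.91 SE, adjusted p = 0.075 by limma with the block).

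GFP_Barcode_54250 stood in donor 1 at 23.9 and 2.50 CPM in NSG marrow and spleen, with 213 and 715 CPM in the matching PTPRCA tissues. GFP_Barcode_9897 stood there at 24.4 and 14.9 CPM in NSG and at 314 and 650 CPM in PTPRCA. GFP_Barcode_22403 was closer in marrow, at 474 against 659 CPM, than in spleen, at 466 against 3008 CPM. These and the barcodes of the preceding paragraph had baselines of 243 to 4960 CPM in donor 1, in which each was lower in NSG in both tissues. GFP_Barcode_28531 stood at 13.8 and 4.14 CPM in NSG and at 182 and 21.2 CPM in PTPRCA of donor 1. GFP_Barcode_54499 stood at 3.23 and 0 CPM against 17.2 and 196 CPM. GFP_Barcode_38818 stood at 0 and 0.131 CPM in NSG of donor 1 against 29.1 and 6.03 CPM in PTPRCA, and at 0.962 and 0.599 CPM against 11.1 and 20.4 CPM in donor 2. All 3 lay far below their baselines of 1884, 1271 and 1233 CPM in donor 1. The 4 barcodes of donor 1 not named so far had 378 to 733 CPM at baseline and at most 44.2 CPM at disease, which was reached in PTPRCA marrow.

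Among barcodes abundant in the donor 2 baseline only, GFP_Barcode_9344 stood at 140 and 14.2 CPM in NSG marrow and spleen, with 494 and 369 CPM in the matching PTPRCA tissues, from 1847 CPM. GFP_Barcode_19083 stood at 2.51 and 0.460 CPM in NSG and at 4.64 and 37.8 CPM in PTPRCA, from 1206 CPM. Both lay lower in NSG in each tissue. The barcodes higher in NSG in both tissues of donor 2 were GFP_Barcode_52804 and GFP_Barcode_158440, the latter at 32.3 and 20.8 CPM in NSG against 18.5 and 9.63 CPM in PTPRCA. GFP_Barcode_58679 had opposite signs, at 17.1 CPM for NSG and 25.5 CPM for PTPRCA marrow and 121 against 3.66 CPM in spleen. The 1 barcode of donor 2 not named had 539 CPM at baseline and at most 14.0 CPM at disease, with opposite signs in the tissues.

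The samples whose libraries differed enter many of these values. In spleen of donor 1 the NSG value lay below both PTPRCA libraries for 13 of the 14 barcodes that had at least 10 CPM in PTPRCA and were split. The exception was GFP_Barcode_18532, at 0 in NSG and in 1 PTPRCA library. The 3 most abundant in PTPRCA spleen (GFP_Barcode_52804, GFP_Barcode_52357 and GFP_Barcode_98919) were not split. The limit of 10 CPM was set on the PTPRCA value, which favours this order, so nothing is read from the count. The NSG spleen value, an average of 3 libraries, was not split either. Without PTPRCA spleen of donor 1 the block fit called 2 of the 33 (GFP_Barcode_69276 and GFP_Barcode_52357), and without NSG marrow of donor 1 it called 1 (GFP_Barcode_69276). In marrow alone, 9 of 21 barcodes of donor 1 were over 4-fold lower in NSG and 0 higher, against 10.4% and 21.4% of all barcodes tested there. In spleen alone these were 13 and 0 of 21, against 10.7% and 19.9%. In donor 2, 4 of 19 were lower and 0 higher in marrow alone, against 9.04% and 18.5%, and 7 lower and 1 higher in spleen alone, against 9.22% and 17.7%.

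Spleen and marrow gave no called difference. Limma called 0 of 33 between spleen and marrow, without and with the block, as it did for 0% of the 3443 barcodes tested, and 0 of 33 and 0 of 3443 had an unadjusted p below 0.05. The mean difference was below 0 for 17 of the 33 and above 0 for 10, with a median of -0.036. Whether the strain difference was larger in spleen than in marrow was tested as an interaction. It was called for 0 of 33, without and with the block, and for 0% of all barcodes, with 0 and 2 of 33 at an unadjusted p below 0.05 and 0 and 4 of 3443.

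For GFP_Barcode_98919 the order of the strains turned between the tissues in both donors. In marrow it was higher in NSG, at 29908 against 9653 CPM in donor 1 and at 66.9 against 22.9 CPM in donor 2. In spleen it was lower in NSG, at 5109 against 82278 CPM in donor 1 and at 2.38 against 27.0 CPM in donor 2. In donor 1 its rank among all barcodes was 3 in NSG marrow and in PTPRCA spleen, 26 in NSG spleen and 20 in PTPRCA marrow. The log2 interaction was -4.22 ± 1.72 (SE, unadjusted p = 0.014, adjusted p = 1 by limma with the block), which did not pass. The NSG marrow and PTPRCA spleen values of donor 1 come from the samples whose libraries differed.

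The barcodes abundant in 1 baseline only were, by that choice, below the threshold in the baseline of the other donor. Their low values in that baseline are therefore descriptions alone. The disease samples of the other donor played no part in the choice. At 100 CPM, 21 GFP barcodes passed in donor 1, 19 in donor 2 and 33 in either. For BFP these counts were 580, 686 and 1263, and for mCHERRY 531, 552 and 1083, so sharing between baselines was more frequent in the GFP set. Barcodes without a read in the other donor were not counted for BFP and mCHERRY. Of 14 barcodes abundant in donor 1 only, 8 had no read in any of the 5 samples of donor 2. The highest baseline value there was 4.28 CPM (GFP_Barcode_9897). GFP_Barcode_3138 was the only one of them to reach 10 CPM at disease in donor 2. Of 12 barcodes abundant in donor 2 only, 7 had no read in donor 1, and the highest baseline value there was 66.1 CPM (GFP_Barcode_9344), which was at 0 in all 4 disease samples of donor 1. GFP_Barcode_18532, at 413 CPM in the donor 2 baseline and 0 in that of donor 1, reached 113 CPM in NSG marrow, 24.3 CPM in PTPRCA marrow and 305 CPM in PTPRCA spleen of donor 1. In NSG marrow its libraries stood at 7.17 and 220 CPM. GFP_Barcode_47225, at 0 in the donor 1 baseline, stood at 28.3 CPM in NSG marrow of donor 1, from libraries at 0 and 56.7 CPM. In donor 2, its own donor, GFP_Barcode_18532 stood at 171 and 33.9 CPM in NSG marrow and spleen and at 475 and 386 CPM in PTPRCA.

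The number of barcodes that stayed visible also differed by sample. In donor 1, 5 of 21 were below 3 reads in NSG marrow and 6 in NSG spleen, against 3 in PTPRCA marrow and 4 in PTPRCA spleen. In donor 2, 7 and 8 of 19 were in NSG, and 5 and 6 in PTPRCA. Among BFP barcodes of at least 100 CPM at the donor 1 baseline the order was the opposite, with 57.2% and 62.8% below 3 reads in NSG marrow and spleen, and 64.8% and 76.2% for PTPRCA. Among mCHERRY barcodes of that baseline the shares were 39.2% and 47.5% for NSG, and 21.1% and 35.6% for PTPRCA. The donor 2 shares were 61.5% and 64.6% (NSG) and 61.7% and 74.6% (PTPRCA) for BFP, and 18.3% and 19.0% (NSG) and 16.3% and 26.4% (PTPRCA) for mCHERRY. A level of 100 CPM was reached by 6 of 21 in an NSG sample of donor 1 and by 14 in a PTPRCA sample, and by 5 of 19 in each strain in donor 2. The median level of the 21 was 13.8 and 2.10 CPM in NSG marrow and spleen of donor 1, with 187 and 340 CPM in the matching PTPRCA tissues. The median of the 19 was 2.51 and 0.599 CPM in NSG and 18.5 and 20.4 CPM in PTPRCA of donor 2. For mCHERRY barcodes of the same baseline the donor 1 medians were 3.08 and 0.536 CPM (NSG) and 9.50 and 7.77 CPM (PTPRCA). In donor 2 they were 43.1 and 20.0 CPM (NSG) and 32.7 and 32.8 CPM (PTPRCA), so marrow was higher in NSG. The BFP medians were 0.160 CPM or less in every disease sample. The number reaching 100 CPM was not counted for these libraries.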

How the data were processed

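Barcodes were amplified from DNA of sorted viable cells in 2 rounds of PCR, after the lysate had been split into technical replicates, per the labels' protocols. Bowtie 1.2.2 and R 3.6 are named in the submitters' processing notes. For the barcode reference list, filters and combination of replicates, details were not given in the sources used here. CPM is the unit the authors deposited, and each column summed to 1000000, with 0 columns of other samples. Low values written in full were sums of whole multiples of 2 to 4 steps per column, which makes a column the average of that many libraries. Whole totals followed for 23 libraries (all within 0.00513 reads of a whole number), from 1591539 to 4475416 reads. No single step holds for a column, and no count test was therefore run.

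Limma 3.58.1 in R 4.3.3 gave the tests and Python 3.11.15 (scipy 1.17.1, numpy 2.4.6, pandas 2.3.3) the rest. Limma (lmFit, eBayes with a trend) ran on log2(CPM + 10) for the 3443 barcodes with at least 100 CPM in any sample, with 1 mean per group over all 10 samples and a Benjamini-Hochberg adjusted p below 0.05 over all of them. The scale understates differences of rare barcodes. Samples of a number share a donor mouse, per the labels, which pairs them. Their deviations from group means correlated at 0.466 to 0.944 over 10 pairs of groups. Alternatives were the donor block, pseudocounts of 1 and 100, filters, scaling without GFP_Barcode_52804 and left-out samples. P-values measure only the spread between these samples, and limma draws each SE towards the spread over all barcodes tested. In the block fit without a trend the 4 barcodes called with the block shared an SE of 0.996. An SE given here is therefore not a measure of that barcode's own spread between samples. Barcodes named are those of at least 1000 CPM in any sample or 100 CPM in both baselines, those called, and 3 on either side of the threshold. GFP_Barcode_18532, GFP_Barcode_158440, GFP_Barcode_58679 and the barcodes listed at 0 at disease were chosen for naming once their values were known. The barcodes and lists were chosen with earlier results of these data known.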

Additional observations from a re-analysis of the deposited data

Results flagged for a closer look

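The difference of spleen from marrow for GFP_Barcode_98919 had opposite signs in the 2 strains, clearly so in donor 1 only. In PTPRCA of donor 2 the spleen libraries, at 35.9 and 18.1 CPM, lay on either side of the marrow libraries, at 24.4 and 21.4 CPM. Spleen minus marrow on log2(CPM + 10) was -2.55 and -2.64 in NSG of donors 1 and 2 and 3.09 and 0.17 in PTPRCA, a difference of -4.22 between strains (adjusted p = 1 by limma, without and with the donor block). GFP_Barcode_22403 showed the same signs at a difference of -1.12, of which the donor 2 part rests on values of 0.348 CPM or less and the donor 1 part on PTPRCA spleen at 2.17 against -0.024 in NSG. Groups of 2 samples were too small for a search for single outlying samples.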

How the results depend on the processing

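The count of barcodes called between strains was 0 without the donor block under every pseudocount, filter, scaling and trend tried. With the replicate block it was 4 as planned, 4 with a pseudocount of 1, 3 with a filter of 1000 CPM and 3 scaled without GFP_Barcode_52804. The barcodes called were not the same throughout. At a pseudocount of 1 GFP_Barcode_52357 was not called (adjusted p = 0.412 by limma with the block). With the filter of 1000 CPM GFP_Barcode_113643 was not (0.081). Scaled without GFP_Barcode_52804, GFP_Barcode_69276 (0.198) and GFP_Barcode_52357 were not. Other barcodes of the set entered the counts at a pseudocount of 1 and in that scaling. In settings chosen after seeing the data it was 1 with the block and no trend, 2 without PTPRCA spleen of donor 1 and 1 without NSG marrow of donor 1. With the block it was 0 at a pseudocount of 100, without a filter and with tissues averaged. For spleen against marrow and for the interaction it was 0 in all settings. With a donor left out, 1 sample per group remained, so that no such count could be had. The count over 4-fold apart by strain in donor 1 was 7, against 11 at 2-fold, 12 with a pseudocount of 1, 2 with 100 and 13 in spleen alone. In donor 2 it was 4, against 2 at 8-fold, 2 with a pseudocount of 100 and 8 in spleen alone (7 lower, 1 higher). Removing GFP_Barcode_52804 took the share of reads from 47.4% to 20.5% at baseline, from 36.5% to 3.69% in NSG marrow, from 38.6% to 3.01% in NSG spleen, from 38.5% to 7.55% in PTPRCA marrow and from 43.8% to 17.7% in PTPRCA spleen.

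Among 20 named barcodes, 0 of 79 strain differences changed sign with the block, another pseudocount or scaling. With 1 sample per donor in each group, the block cannot alter a strain or tissue difference. The block values among the 79 of either contrast were therefore fixed in advance, and GFP_Barcode_16890 was at 0 in every setting. With a donor left out, the strain difference of GFP_Barcode_19083 changed sign (-1.21 to 0.40), and many others rested on 1 donor. Without donor 1 the strain difference was 0 for GFP_Barcode_9897, GFP_Barcode_54250, GFP_Barcode_54499 and GFP_Barcode_28531, -0.050 for GFP_Barcode_102213, -0.029 for GFP_Barcode_22403 and -0.013 for GFP_Barcode_24894. Without donor 2 it was 0 for GFP_Barcode_9344. Of those called with the block, the ranges were -5.64 to -3.51 for GFP_Barcode_69276, -3.96 to -3.78 for GFP_Barcode_3138, -4.67 to -2.78 for GFP_Barcode_113643 and -5.49 to -1.99 for GFP_Barcode_52357. For spleen against marrow 5 of 79 did: at a pseudocount of 1 GFP_Barcode_102213 (-0.052), GFP_Barcode_19083 (-0.39) and GFP_Barcode_54250 (-0.27), the last also scaled without GFP_Barcode_52804 (-0.054), and at 100 GFP_Barcode_7083 (0.10). With a donor left out, spleen against marrow ranged from -0.050 to 0.26 for GFP_Barcode_102213, -0.40 to 0.73 for GFP_Barcode_19083, -1.39 to 0.013 for GFP_Barcode_24894, -0.63 to 0.24 for GFP_Barcode_38818, -0.35 to 1.14 for GFP_Barcode_52357, -0.32 to 0.19 for GFP_Barcode_52804 and -1.23 to 0.27 for GFP_Barcode_98919. The cause was not tested.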
